A study of Mus musculus with 14 samples.

Results

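The 9 genes described here encode enzymes and regulators of glycogen synthesis and breakdown in skeletal muscle, namely Gys1, Gyg, Gbe1, Ugp2, Pygm, Phka1, Phkg1, Ppp1r3a and Ppp1r3c. They were taken by matching gene symbols, and are 9 of the 54532 genes in the deposited tables. RNA-seq of poly-T purified RNA from soleus and gastrocnemius muscle was carried out to compare the muscle transcriptome of endothelial c-Myc overexpression mice (EC-Myc OE) and control littermates (CT) with and without a western-style high-fat diet (WD). All animals were FVB/N males, and all carried a tetracycline-responsive human c-Myc transgene located on the Y chromosome. EC-Myc OE mice also carried the Cdh5-tTA transactivator, which is driven by an endothelial promoter, whereas CT mice lacked it. Both genotypes were raised on doxycycline, which keeps the transgene silent, and doxycycline was withdrawn at 4 to 6 weeks of age. Mice then received control diet (CTD) or WD for 20 weeks by the labels and methods. By their labels, 3 libraries were CT-CTD, 3 were CT-WD, 4 were OE-CTD and 4 were OE-WD, and the labels do not give the muscle of each library. Transgene reads were left unexamined.

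The labels may have CT-WD and OE-CTD exchanged, and every result below on genotype or diet depends on them. Group sizes in the labels go by genotype, whereas the study's legend gives them by diet. The study's fold changes between OE-WD and CT-WD are also close to those of the libraries labelled OE-WD and OE-CTD in the files. As labelled, OE-WD had 2.35-fold the CPM of OE-CTD for Zbtb16, 1.56-fold for Acsl3, 2.04-fold for Rabif and 0.638-fold for Rrad, and 0.693-fold, 1.12-fold, 0.868-fold and 0.688-fold the CPM of CT-WD, genes chosen after their values were seen. By these measures either the labels or the study's own grouping has the names exchanged, and which of them does cannot be told. Groups are named here as labelled. With the names exchanged, an alternative chosen after the data were seen, Ppp1r3c and Phka1 would be lower on WD over both genotypes (2 of the 9 genes called, against 8.49% of all genes), and 0 of the 9 would be called between genotypes, against 0.00647% of all genes. Each main effect of genotype given here would then be one of diet, and the reverse, while the interactions would keep their values. The study's text on the transcriptome also gives another duration of diet.

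Summed counts ran from 24101226 to 25054855 for CT-CTD libraries, 21833839 to 26518734 for CT-WD, 22083340 to 28519159 for OE-CTD and 22033140 to 27698046 for OE-WD. Each library is named by its group and replicate number. The labels do not state that each library is a separate animal, so p-values measure the spread between these libraries. The sample codes of all 4 OE-WD libraries end in the same digits, as do those of 3 of the 4 OE-CTD libraries, and what these digits stand for is not given. Whether the EC-Myc OE libraries are independent of each other, as every genotype test assumes, therefore cannot be told. The codes of CT-CTD 1 and CT-WD 1 form a run of their own, apart from the run of the other 4 CT libraries. On the first principal component of the 500 most variable genes, which held 41.3% of their variance, CT-CTD 1 (-2.36) and CT-WD 1 (-16.7) lay among the EC-Myc OE libraries (-20.6 to -2.05 without OE-CTD 4), and the other CT libraries were between 18.9 and 24. OE-CTD 4, at 14.5, lay nearer to these. What sets these libraries apart was not tested.

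Glycogen is the glucose store of the muscle fibre. Its chains are started by glycogenin, extended from UDP-glucose by glycogen synthase and branched by the branching enzyme, and they are shortened by glycogen phosphorylase, which phosphorylase kinase switches on during contraction or adrenergic stimulation. Protein phosphatase 1 (PP1), held at the glycogen particle by targeting subunits, opposes the kinase by activating synthase and inactivating phosphorylase.

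Levels of different genes were set side by side as FPKM, which scales reads to gene length. Pygm was by far the most abundant per length, with a mean of 2810 ± 332 FPKM (SD over 14 libraries). Ugp2 followed at 299 ± 35.9 FPKM, Gyg at 178 ± 11.0, Phka1 at 149.8 ± 32.2, Ppp1r3c at 147 ± 91.3 and Gys1 at 116 ± 9.67. Phkg1 was at 68.1 ± 6.58 FPKM, Ppp1r3a at 34.5 ± 4.08 and Gbe1 at 14.5 ± 0.965. The ranges over libraries of Pygm and Ugp2 did not overlap with each other or with that of Gyg, while that of Ppp1r3c was wide enough to overlap with Ugp2, Gyg, Phka1, Gys1 and Phkg1. Ppp1r3a and Gbe1 were each below every library of the gene above them in this order. The ratio of Pygm to Gys1 in FPKM was between 20.0 and 32.9.

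The muscle forms outweighed their relatives in every library. Pygm made up between 99.8% and 99.94% of the summed FPKM of the phosphorylase genes Pygm, Pygb and Pygl. Gys1 made up between 98.9% and 99.98% of Gys1 and Gys2, Phka1 between 98.8% and 99.5% of Phka1 and Phka2, and Phkg1 between 97.3% and 98.4% of Phkg1 and Phkg2. Phkb, the other regulatory subunit of phosphorylase kinase, was at 77.0 ± 8.21 FPKM, close to the 68.1 FPKM of the catalytic subunit Phkg1. The fibre markers Acta1 and Tnnt3 had means of 30570 and 10510 FPKM and the fast-fibre marker Tnnc2 had 0.933 FPKM. Of the exon bases of Tnnc2, 74% are shared with Ube2c on the opposite strand.

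**Figure D1:**
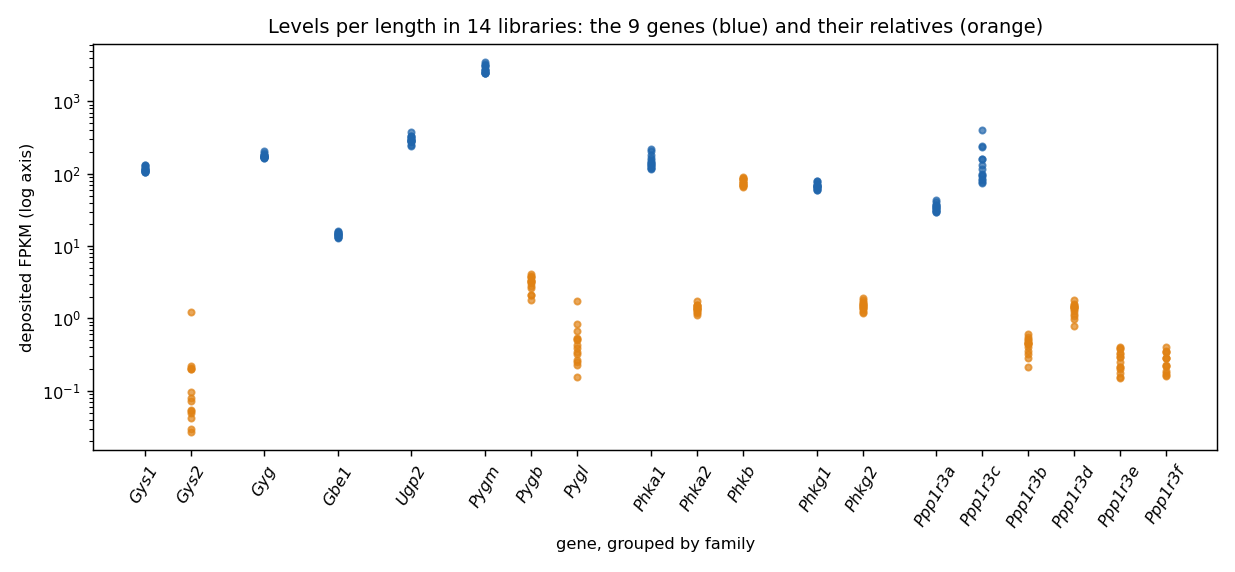
Deposited FPKM on a log axis for the 9 genes (blue) and their relatives (orange), with a point for each of the 14 libraries. Pygm lies above all the others, and Pygb, Pygl, Gys2, Phka2 and Phkg2 lie far below the muscle forms, while Phkb is near Phkg1.

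The question for genotype was which of these genes differ between EC-Myc OE and CT muscle, taking both diets together as the mean of the comparisons on each diet. Ppp1r3c and Phka1 were lower in the libraries labelled EC-Myc OE, and the other 7 genes did not pass the test. With CT-WD and OE-CTD exchanged this would be a difference between diets. These were 2 of 9 genes at an adjusted p under 0.05 by edgeR's quasi-likelihood test, against 8.49% of the 15458 genes tested, and both were lower, against 3.45% lower and 5.04% higher among all genes. The same 2 were the genes at an unadjusted p under 0.05, against 23.9% of all genes (10.8% lower, 13.1% higher). Of the 9 genes, 8 had a log2 fold change below 0, and the median was -0.13, compared with -0.0012 over all genes tested. All 9 genes passed the filter on low counts.

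Among the genes of synthesis, Gys1 (ENSMUSG00000003865, chromosome 7, 45434844 to 45456619, plus strand, on GRCm38) encodes the muscle glycogen synthase. Its level was between 458 and 584 TMM-normalized CPM (counts scaled to the effective library size) over the 14 libraries, and EC-Myc OE differed from CT by a log2 fold change of 0.06, with a standard error of 0.0652 and an adjusted p of 0.591. Of its exon bases, 6.5% are shared with Ruvbl2 on the opposite strand, and the strand setting of the counting is not given in the sources used here. Ruvbl2 had a mean of 22.4 CPM and Gys1 a mean of 507 CPM.

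Gyg (ENSMUSG00000019528, chromosome 3, 20122084 to 20155317, minus strand) encodes glycogenin, the protein primer of the glycogen particle. It varied little, between 356 and 446 CPM, and differed by a log2 value of -0.08 with genotype (standard error 0.0573, adjusted p = 0.417). Gbe1 (ENSMUSG00000022707, chromosome 16, 70313949 to 70569716, plus strand), the branching enzyme, was between 62.7 and 79.5 CPM, and its genotype difference was -0.02 (standard error 0.0653, adjusted p = 0.89). Ugp2 (ENSMUSG00000001891, chromosome 11, 21321138 to 21371201, minus strand) makes UDP-glucose. It was between 664 and 1065 CPM, and EC-Myc OE differed by -0.15 on the log2 scale (standard error 0.0894, adjusted p = 0.345). The groups of each of these 4 genes overlapped in both genotype comparisons.

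Pygm (ENSMUSG00000032648, chromosome 19, 6384399 to 6398459, plus strand) encodes the muscle glycogen phosphorylase. Pygm CPM in the CT mice was 8013, 9001 and 7834 under CTD against 8218, 10125 and 8957 under WD (replicates 1 to 3 of each). For EC-Myc OE, Pygm CPM ran 7306, 7308, 7314 and 9203 under CTD against 8016, 7352, 7640 and 9452 under WD (replicates 1 to 4 of each). In each EC-Myc OE group replicate 4 was the highest, and of the others all but OE-WD 1 lay below every CT library. With all libraries the genotype difference was -0.13 on the log2 scale (standard error 0.0865, adjusted p = 0.396). When OE-CTD 4 and OE-WD 4 were both left out, an alternative chosen after the data were seen, it was -0.22 with an adjusted p of 0.0455, and with CT-WD 2 left out as well, also chosen after the data were seen, it was -0.17 with an adjusted p of 0.0931.

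The libraries with the highest Pygm, namely CT-WD 2, OE-WD 4 and OE-CTD 4, also had the highest summed FPKM of 9 fast-fibre genes, at 59800, 59660 and 58400, where the other 11 libraries had between 44050 and 53410. This was not particular to fast-fibre genes. The same libraries were highest for the 5 general fibre genes, at 42750, 47210 and 47590 FPKM, where the other 11 had at most 38640. Their slow-fibre sums were 2075, 2176 and 2434 FPKM, the last being the highest of all libraries. None of the 9 fast-fibre genes was called between genotypes. The part of fibre composition in the level of Pygm was not tested.

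Phka1 (ENSMUSG00000034055, chromosome X, 102513975 to 102644246, minus strand) encodes the muscle form of the regulatory alpha subunit of phosphorylase kinase. Phka1 CPM in the CT mice was 802, 1041 and 1173 under CTD against 772, 956 and 1243 under WD (replicates 1 to 3 of each). For EC-Myc OE, Phka1 CPM ran 662, 687, 680.1 and 828 under CTD against 809.9, 722, 757 and 868 under WD (replicates 1 to 4 of each). The EC-Myc OE libraries were within a narrow band at the lower end, and CT-CTD 1 and CT-WD 1 fell inside that band, so the groups overlapped on both diets. By edgeR Phka1 differed by -0.41 on the log2 scale (standard error 0.107, adjusted p = 0.0282), a level 1.33-fold lower in the libraries labelled EC-Myc OE. The call was lost in 9 of 14 fits that left out a library, with an adjusted p of between 0.0522 and 0.0882. The libraries left out were CT-CTD 2 or 3, CT-WD 2 or 3, OE-CTD 1, 2 or 3 and OE-WD 2 or 3. In those 9 fits the log2 fold change was between -0.42 and -0.31, and between 4.45% and 6.71% of all genes were called, against 8.49%. The call was also lost with limma on log2(FPKM + 1), where the log2 fold change was -0.39 and the adjusted p 0.0661.

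Phkg1 (ENSMUSG00000025537, chromosome 5, 129863421 to 129898549, minus strand), the catalytic subunit of that kinase, was between 349 and 476 CPM. Phkg1 differed between genotypes by -0.13 on the log2 scale (standard error 0.0723, adjusted p = 0.29). Its exons share 9.7% of their bases with Sumf2 on the opposite strand, which had a mean of 13.7 CPM against 405 CPM for Phkg1. The relatives Phkb, Phka2 and Phkg2 had log2 fold changes of -0.15, -0.03 and -0.03, none of which passed the test.

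Ppp1r3c (ENSMUSG00000067279, chromosome 19, 36731737 to 36736653, minus strand) encodes a subunit, also known as PTG, that brings PP1 to glycogen. Ppp1r3c CPM in the CT mice was 404, 240.5 and 613 under CTD against 291, 989 and 583 under WD (replicates 1 to 3 of each). For EC-Myc OE, Ppp1r3c CPM ran 189, 192, 204 and 230.2 under CTD against 334, 249.6, 212 and 394 under WD (replicates 1 to 4 of each). All 4 OE-CTD libraries lay below all 3 CT-CTD libraries, whereas on WD the library CT-WD 1 lay among the EC-Myc OE libraries. The log2 fold change over both diets was -1.05 (standard error 0.237, 95% interval -1.56 to -0.55, adjusted p = 0.0138), a level 2.07-fold lower in the libraries labelled EC-Myc OE. In 14 fits that each left out a library it was between -1.22 and -0.80 and the call was kept, with an adjusted p of up to 0.049. The call was lost with limma on log2(FPKM + 1), where the log2 fold change was -0.93 and the adjusted p 0.0571.

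Ppp1r3c also varied most between replicates. Its biological coefficient of variation, the spread beyond counting error, was 30.8%, at percentile 98.4 of the 2493 genes with a mean of at least 50 CPM, whose median was 10.5%. That of Phka1 was 14.9% (percentile 86.7), and the other 7 genes were between 9.13% and 12.8%. The spread of Ppp1r3c was uneven, since the coefficient of variation of its CPM was 56.5% in CT-WD and 9.27% in OE-CTD.

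Ppp1r3a (ENSMUSG00000042717, chromosome 6, 14713977 to 14755274, minus strand) encodes the PP1 targeting subunit known as GM or RGL, which is found in striated muscle. Ppp1r3a CPM in the CT mice was 234, 273 and 259 under CTD against 226, 215 and 186 under WD (replicates 1 to 3 of each). For EC-Myc OE, Ppp1r3a CPM ran 190.7, 194, 223 and 233 under CTD against 199.8, 199, 212 and 231 under WD (replicates 1 to 4 of each). The CT-CTD libraries were the highest in CPM, and those of the other 3 groups shared the same range. The margin was small, with CT-CTD 1 at 233.5 CPM and OE-CTD 4 at 232.6 CPM. In FPKM, CT-CTD 1 (36.41) lay below OE-CTD 4 (37.07) and OE-WD 4 (36.8). The log2 fold change between genotypes over both diets was -0.14 (standard error 0.0696, adjusted p = 0.247).

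**Figure D2:**
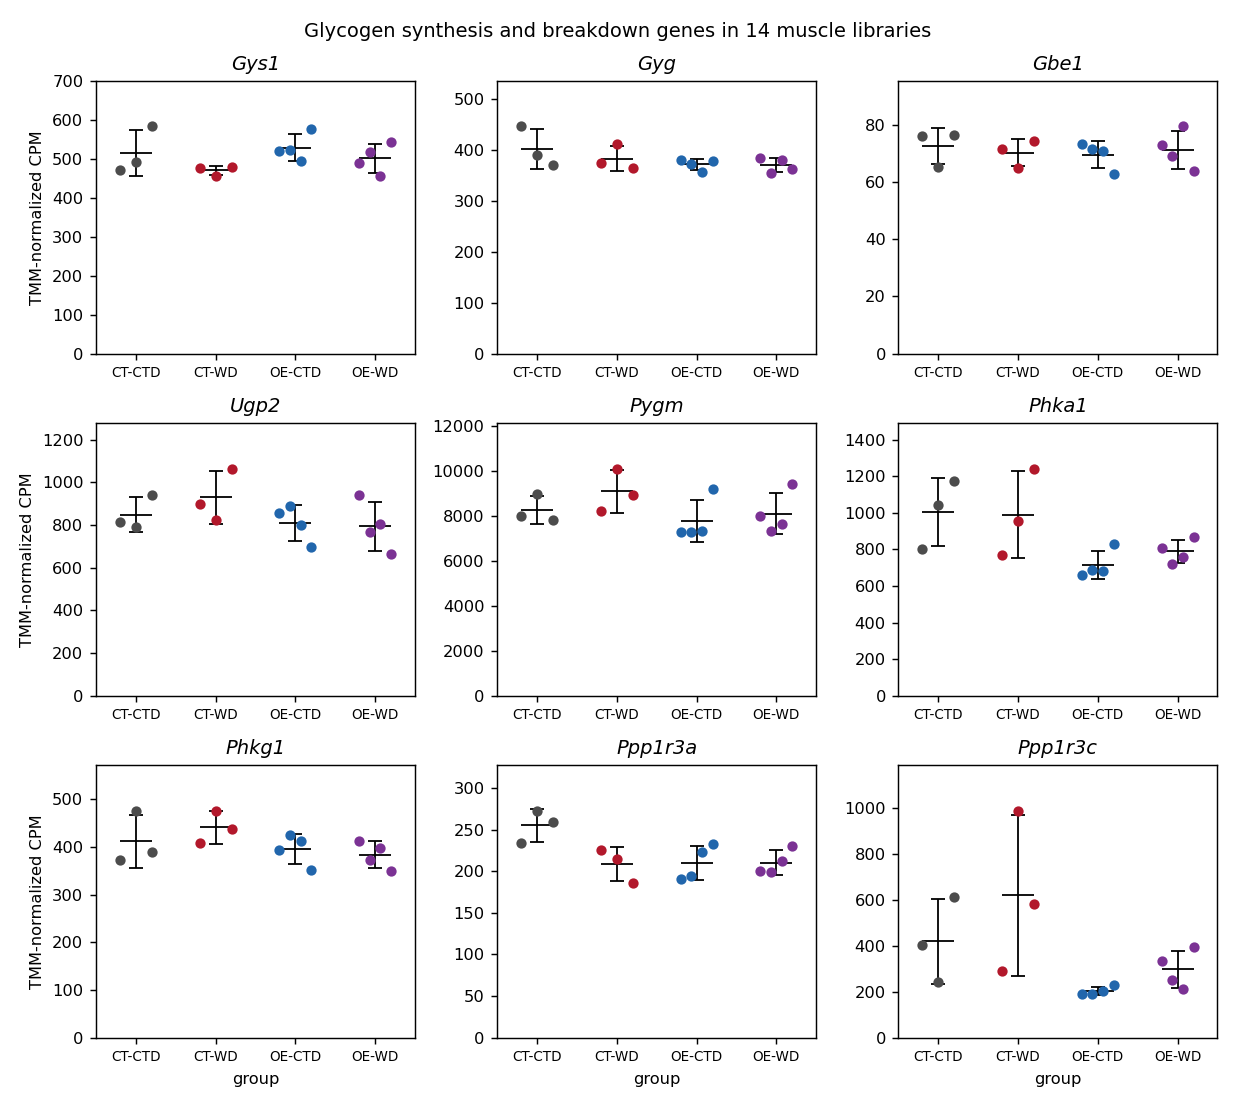
TMM-normalized CPM of the 9 genes in each library (points) by group, with the group mean (horizontal line) and SD (bars), each axis starting at 0. Ppp1r3c spans 240.5 to 989 CPM in CT and 189 to 394 CPM in EC-Myc OE, and the CT-CTD libraries of Ppp1r3a lie above the other groups.

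On each diet alone, 0 of the 9 genes were called by edgeR. Between OE-CTD and CT-CTD the background was 2.67% of genes called (1.11% lower, 1.57% higher), DESeq2 called 1 of the 9 (Phka1, adjusted p = 0.0368) and 5.27% of all genes, and limma on log2(FPKM + 1) called 0 of the 9 and 1.2% of all genes. At an unadjusted p under 0.05 there were 3 genes, all lower, against 15.9% of all genes (6.7% lower, 9.22% higher). The log2 fold changes of these 3 were -1.04 for Ppp1r3c (adjusted p = 0.123), -0.49 for Phka1 (adjusted p = 0.104) and -0.28 for Ppp1r3a (adjusted p = 0.156). The groups of 2 genes, Ppp1r3c and Ppp1r3a, did not overlap in CPM and were lower. Among all genes 15.5% did not overlap in either direction and 6.75% were lower. In FPKM the groups of Ppp1r3a overlapped, with CT-CTD 1 at 36.41 and OE-CTD 4 at 37.07. Without CT-CTD 1 Phka1 was called at the threshold itself (adjusted p = 0.05 after rounding), when 2.19% of all genes were, and without CT-WD 1 both Phka1 (adjusted p = 0.0486) and Ppp1r3c (adjusted p = 0.0398) were called, when 3.89% of all genes were. Without CT-CTD 3 the log2 fold change of Ppp1r3c was -0.66 (adjusted p = 0.501) and that of Phka1 -0.37 (adjusted p = 0.405).

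On WD the background of the genotype comparison was 0.725% of genes called (0.395% lower, 0.33% higher), and DESeq2 and limma called 0 of the 9, with 3.73% of all genes called by DESeq2, 0.168% by limma on log2(FPKM + 1) and 0.0239% on log2(FPKM + 0.1). At an unadjusted p under 0.05 there were 2 genes, against 16.9% of all genes (8.42% lower, 8.44% higher), namely Ppp1r3c with a log2 fold change of -1.06 (adjusted p = 0.135) and Phka1 with -0.33 (adjusted p = 0.288). None of the 9 genes had groups that did not overlap, against 11.6% of all genes (5.54% lower). Without CT-WD 1 Ppp1r3c was called, with a log2 fold change of -1.40 and an adjusted p of 0.0102, but in that fit 9.47% of all genes were called. Without CT-WD 2 its log2 fold change was -0.56 (adjusted p = 0.538), and without CT-WD 3 that of Phka1 was -0.13 (adjusted p = 0.821). Both comparisons of genotype enter the mean over diets given above.

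The question for diet was which of the 9 genes differ between WD and CTD within a genotype, as labelled. In the CT libraries 0 of the 9 were called by edgeR, DESeq2 or limma, where 0% of all genes were called by edgeR, and 1 passed an unadjusted p under 0.05, against 7.28% (3.09% lower, 4.19% higher). That gene was Ppp1r3a, lower by a log2 value of -0.29 on WD (standard error 0.105, adjusted p = 0.595). This comparison and that of OE-CTD with CT-CTD, where Ppp1r3a was also lower, share the CT-CTD libraries. Ppp1r3a was the single gene of the 9 whose groups did not overlap, against 9.63% of all genes (5.16% lower). In CT, Ppp1r3c differed by 0.57 on the log2 scale (standard error 0.362, adjusted p = 0.836). This difference was 0.06 without CT-WD 2 and 0.95 without CT-CTD 3.

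Between OE-WD and OE-CTD, 0 of the 9 genes were called by edgeR, DESeq2 or limma, against 0.00647% of all genes by edgeR, and 0 passed an unadjusted p under 0.05, against 4.2% (2.27% lower, 1.93% higher). None had groups that did not overlap, against 4.08% (2.23% lower). Ppp1r3c again had the highest log2 fold change of the 9, at 0.55 (standard error 0.314, adjusted p = 1), and the other 8 genes lay between -0.08 and 0.14. Over both genotypes 0 of the 9 were called by edgeR, DESeq2 or limma, against 0.00647%, and 1 passed an unadjusted p under 0.05, against 5.96% (2.34% lower, 3.62% higher). That was Ppp1r3c, with a log2 fold change of 0.56 (95% interval 0.05 to 1.07, adjusted p = 0.77). This value was 0.30 without CT-WD 2 and 0.75 without CT-CTD 3.

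Whether the diet response differs between genotypes was tested as an interaction. The count of the 9 genes called was 0 with edgeR, DESeq2 or limma, against 0% of all genes with edgeR, and 0 passed an unadjusted p under 0.05, against 5.92% (3.34% lower, 2.57% higher). The interaction was 0.29 on the log2 scale for Ppp1r3a (standard error 0.139, adjusted p = 0.847) and -0.02 for Ppp1r3c (standard error 0.478, adjusted p = 0.999). The intervals of Gys1, Gyg, Gbe1, Ugp2, Pygm, Phka1 and Phkg1 also included 0.

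Of a list of 31 other genes of glycogen metabolism, 30 passed the filter on low counts. Between genotypes over both diets 6 of these 30 were called, against 8.49% of all genes, and the median log2 fold change of the 30 was -0.03. The gene that the deposited table names Pgm2 (ENSMUSG00000025791, chromosome 4, 99929414 to 99987294, plus strand) carries the name Pgm1 in GENCODE M21. It encodes a phosphoglucomutase, and its level was between 1347 and 1580.02 CPM over the 6 CT libraries and between 983 and 1222 CPM over the 8 EC-Myc OE libraries, so the genotypes did not overlap. The genotype difference was -0.38 on the log2 scale (standard error 0.0647, adjusted p = 0.00312), and the call was kept in every alternative that kept the labels.

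The genes that were higher included both hexokinases of the list, which phosphorylate incoming glucose. Hk1 had a log2 fold change of 0.43 (adjusted p = 0.00642) and Hk2 of 0.35 (adjusted p = 0.0282). The call of Hk2 was lost in 7 of 14 fits that left out a library, with an adjusted p of up to 0.0792. In those 7 fits its log2 fold change was between 0.29 and 0.37. The Hk2 call was also lost with limma on log2(FPKM + 0.1) (adjusted p = 0.0545). It was lost as well with limma on log2(FPKM + 1) without a filter on low FPKM (adjusted p = 0.0621). Leaving out OE-CTD 4, OE-WD 4 and CT-WD 2, chosen after the data were seen, lost it too (adjusted p = 0.0861). Pygb, the brain form of phosphorylase, had a log2 fold change of 0.55 (adjusted p = 0.0094) at a mean of 3.08 FPKM. Prkag3, the gamma subunit of AMP-activated protein kinase found mainly in fast muscle, had a log2 fold change of 0.30 (adjusted p = 0.0179), lost without CT-CTD 3 (adjusted p = 0.0544).

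On single diets, Prkag3 was the single gene of the 30 called between OE-WD and CT-WD, against 0.725% of all genes, with a log2 fold change of 0.50 (adjusted p = 0.037). Pgm2 at -0.47 (adjusted p = 0.0152) and Hk1 at 0.46 (adjusted p = 0.0488) were called between OE-CTD and CT-CTD, against 2.67% of all genes. These single-diet calls were less stable. That of Prkag3 was lost with limma and without CT-WD 3 (adjusted p = 0.191), among others. That of Hk1 was lost without CT-CTD 3 (adjusted p = 0.226) and in most other alternatives, and that of Pgm2 without CT-CTD 2 (adjusted p = 0.0865), OE-CTD 2 (adjusted p = 0.0505) or OE-CTD 3 (adjusted p = 0.0529), and with limma on log2(FPKM + 0.1) (adjusted p = 0.0548). The interaction of Prkag3 was 0.40 (adjusted p = 0.825). In the comparisons of diet and the interaction 0 of the 30 were called by edgeR, and at an unadjusted p under 0.05 there were 3 between the CT groups (7.28% of all genes), 1 between the EC-Myc OE groups (4.2%), 2 over both genotypes (5.96%) and 2 for the interaction (5.92%), which is near the share of all genes.

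**Figure D3:**
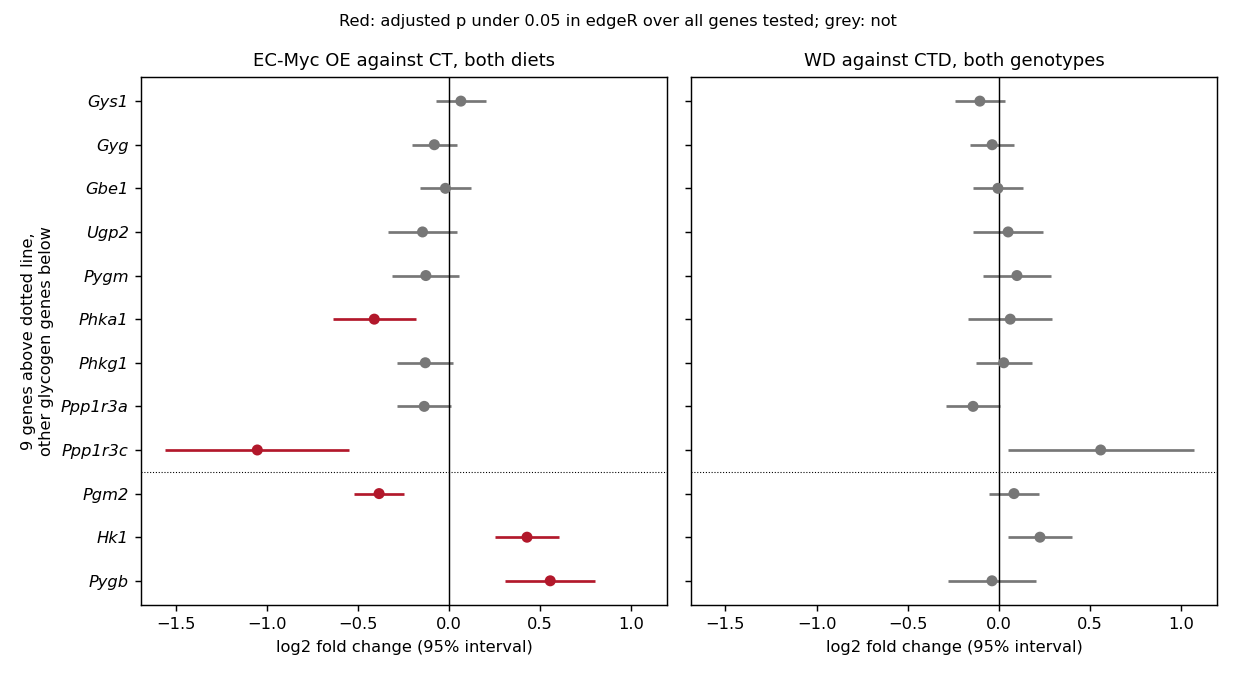
Log2 fold changes (points) with 95% intervals (lines) between genotypes over both diets and between diets over both genotypes, for the 9 genes and for the 3 other glycogen genes called between genotypes in every alternative that kept the labels, with all groups as labelled. Between genotypes Ppp1r3c and Phka1 lie below 0, and between diets the interval of Ppp1r3c runs from 0.05 to 1.07 without passing the adjusted test.

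Some markers of other cells also moved with genotype, as labelled, where 8.49% of all genes were called (3.45% lower, 5.04% higher). Of 5 fibroblast genes, 4 were higher in EC-Myc OE, with a median log2 fold change of 0.99 over the list, and Dcn was the most abundant at 49.3 FPKM. Their summed FPKM was 76.5, 65.6 and 54.3 in CT-CTD 1 to 3 and 178.9, 59.3 and 56.4 in CT-WD 1 to 3. It was between 112 and 194 in OE-CTD and between 127 and 300 in OE-WD.

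Of 6 endothelial genes, 4 were higher in EC-Myc OE, with a median log2 fold change of 0.36, and their summed FPKM was between 57.7 and 57.9 in CT-CTD, between 62.1 and 77.1 in CT-WD, between 65.5 and 75.1 in OE-CTD and between 77.0 and 82.7 in OE-WD. Cdh5 was the most abundant of them, at 24.2 FPKM. Of 9 slow-fibre genes 2 were higher, of 6 adipocyte genes 1 was higher, and 0 of 5 general fibre genes, 9 fast-fibre genes and 5 macrophage genes were called by edgeR. Of the smooth-muscle (4), Schwann (4), blood (3), cardiac (2) and liver (1) genes that were tested, 0 were called. The 5 macrophage genes had a median log2 fold change of 0.63 without passing the test, and their summed FPKM was between 10.9 and 18.7 in CT-CTD, 14.2 and 30.9 in CT-WD, 22.7 and 31.8 in OE-CTD, with OE-WD between 18.2 and 31.4. C1qa was the most abundant of them, at 13.3 FPKM. No fibre, endothelial or fibroblast marker was at 0 in any library. The part of cell composition in the lower Ppp1r3c and Phka1 was not tested, and in whole muscle fewer cells of a type and less RNA per cell cannot be told apart.

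The genes whose log2 CPM followed each of the 9 genes most closely over the 14 libraries were picked from 11775 candidates, as a description without a test. For Ppp1r3c they were Ankrd9 (Pearson r = 0.958, Spearman rho = 0.947), Klf13 (r = 0.949) and Odf3l2 (r = 0.947), with r of 0.941, 0.939 and 0.90 without CT-CTD 3 and CT-WD 2, the libraries farthest from the median. For Phka1 they were Musk (r = 0.972, rho = 0.978), Dpp8 (r = 0.969) and Ttll7 (r = 0.963). For Pygm they were Dopey2 (r = 0.947, rho = 0.943), Maz (r = 0.919) and Myh4 (r = 0.917), the last being the myosin of the fastest fibres. The genes closest to Ppp1r3a were H6pd (r = 0.918), Snapc4 and Abcc1, and those closest to Ugp2 were Acot2 (r = 0.922), Fuom and S100a1.

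The closest genes were Myh7b (r = 0.893) and Npepps for Gys1, and Cacfd1 (r = 0.878), Ndrg2 and Fbxw2 for Gyg. They were Cfap100 (r = 0.866), Ntrk3 and Srsf1 for Gbe1, and Paip2b (r = 0.888), Capza2 and Glo1 for Phkg1. Several of these depended on the 2 libraries farthest from the median of the gene. Without them r fell to 0.521 for Ndrg2 and 0.44 for Fbxw2 with Gyg, 0.724 for Npepps with Gys1, 0.779 for Paip2b with Phkg1 and 0.772 for Cfap100 with Gbe1, and to 0.819 for Acot2 with Ugp2. All of these values include the difference between groups, and the libraries share depth and composition.

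Promoters were searched for CACGTG, the E-box bound by Myc with Max and by other factors, which reads the same on both strands. All 9 genes matched RefSeq's promoter table, with 10 windows of 300 bases, from 250 bases before to 50 after the start, on GRCm38.p6. The motif was in the windows of 2 genes, Ppp1r3c and Gyg, and in 7.15% of all 32851 windows of the table. The windows of both are shown with that of Phka1, the other gene called between genotypes, in lower case with the motif in capitals. They lie at chr19:36736555-36736854, chr3:20155067-20155366 and chrX:102644197-102644496, all on the minus strand and printed 5′ to 3′.
Ppp1r3c: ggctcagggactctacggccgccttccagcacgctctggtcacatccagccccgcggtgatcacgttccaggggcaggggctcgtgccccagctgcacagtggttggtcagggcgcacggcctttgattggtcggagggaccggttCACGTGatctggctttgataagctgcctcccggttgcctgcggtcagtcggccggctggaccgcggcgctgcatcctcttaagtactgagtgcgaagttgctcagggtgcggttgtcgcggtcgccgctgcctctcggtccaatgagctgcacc
Gyg: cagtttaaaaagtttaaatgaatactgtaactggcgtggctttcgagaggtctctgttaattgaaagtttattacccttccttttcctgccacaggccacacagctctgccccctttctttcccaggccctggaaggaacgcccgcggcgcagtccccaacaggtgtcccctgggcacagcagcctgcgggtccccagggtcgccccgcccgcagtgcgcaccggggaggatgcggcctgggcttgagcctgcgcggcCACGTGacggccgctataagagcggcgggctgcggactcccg
Phka1: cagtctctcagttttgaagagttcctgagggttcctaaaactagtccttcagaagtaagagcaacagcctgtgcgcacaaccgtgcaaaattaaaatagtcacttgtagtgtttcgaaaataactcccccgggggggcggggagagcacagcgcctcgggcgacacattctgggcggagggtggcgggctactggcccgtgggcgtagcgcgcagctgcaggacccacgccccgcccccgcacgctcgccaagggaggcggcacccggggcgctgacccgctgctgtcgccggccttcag
In the Ppp1r3c window the motif begins at base 147, and in the Gyg window at base 259. Ppp1r3c differed between genotypes as labelled and Gyg did not pass the test, and no binding was measured here.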

How the data were processed

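The authors deposited counts of reads per Ensembl gene, without normalization, and FPKM, scaled by the authors to the listed gene length and a library total with a further factor per library. Per the submitters' processing notes, reads were aligned with HISAT2 2.0.5 to mm10 and counted with featureCounts 1.5.0-p3. Of 54409 identifiers shared with GENCODE M21, 98.3% had the same position, including 8 of the 9 genes; Ppp1r3c differs slightly. Counts were normalized by TMM and tested with edgeR 4.0.16 in R 4.3.3 (filterByExpr, quasi-likelihood test, a mean for each of 4 groups, all 14 libraries), with Benjamini-Hochberg adjustment over 15458 genes in each of 7 comparisons. Of the deposited counts of a library, the filter removed up to 0.0694%. Counts of the 9 genes were at least 1229 in every library, so variation between libraries limited precision. The biological coefficient of variation was 17% in common over all genes, and of the 9 genes it was 30.8% for Ppp1r3c and between 9.13% and 14.9% for the others.

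Alternatives were DESeq2 1.42.0, its size factors in edgeR, no filter, limma 3.58.1 on log2(FPKM + 1) or log2(FPKM + 0.1) with a minimum mean FPKM of 0.1 or none, only the groups compared, each library left out, and the replicate number as a block. Leaving out OE-CTD 4 and OE-WD 4, or these and CT-WD 2, and an exchange of CT-WD with OE-CTD, were chosen once the data had been seen. The steps were tested on simulated data. Replicates of a group differed by more than sampling noise (chi-square per degree of freedom at least 7.81 over 18 pairs). Deviations of same-numbered CT-WD and CT-CTD libraries from their group means correlated at 0.385, 0.123 and 0.203, each above 0.1, so by this check alone the numbers may pair the CT libraries. All values printed for CT come from the fit without a block, and the replicate block changed no call of the 9 genes there (over all genes, 1 call instead of 0).

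Named were all 9 genes. Of the other glycogen genes, relatives of the 9, any gene called in a comparison, and up to 3 per comparison with the smallest unadjusted p under 0.05 were eligible. The 3 protein-coding genes of at least 1 CPM most like each gene, and the most abundant gene of a marker list, were also eligible. Members and lists were chosen with earlier results of these data known.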

Additional observations from a re-analysis of the deposited data

Results flagged for a closer look

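The study's group sizes and fold changes go by CT-WD and OE-CTD the other way round from the labels, and which is right cannot be told. By the study's grouping, the main effect of genotype on Ppp1r3c and Phka1 is one of diet.

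In a check of each of the 9 genes for a library far from the others in the groups of 4 libraries, 2 of 18 tests were positive, and chance alone gives about 1 in 20. Both concerned OE-CTD 4. Pygm was at 9203 CPM there and between 7306 and 7314 CPM in OE-CTD 1 to 3. Phka1 was at 828.1 CPM there and between 662.4 and 686.5 CPM in OE-CTD 1 to 3. OE-CTD 4 had a TMM factor of 0.888 and a summed fast-fibre level of 58400 FPKM, against between 44050 and 46820 FPKM in OE-CTD 1 to 3. General fibre genes summed to 47590 FPKM there and to between 35120 and 37820 FPKM in OE-CTD 1 to 3. For slow-fibre genes the sum was 2434 FPKM there and between 2127 and 2264 FPKM in OE-CTD 1 to 3. The part of fibre composition was not tested.

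The values are RNA levels of whole muscle, with no measure of glycogen, protein, phosphorylation or enzyme activity. The muscle of each library, the litter and the strand setting are not given, and their part was not tested. Groups of 3 and 4 libraries leave wide intervals for Ppp1r3c, and the call of Phka1 rests on most libraries being kept.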

How the results depend on the processing

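The 63 log2 fold changes of the 9 genes had 1485 values under alternatives that kept the labels, of which 1376 kept their direction and side of the threshold. Between genotypes over both diets, 2 genes were called. The count was 0 with limma on log2(FPKM + 1), on log2(FPKM + 0.1), and on log2(FPKM + 1) without a filter on low FPKM. In these limma fits Ppp1r3c had an adjusted p of 0.0571, 0.078 and 0.119, with 5.98%, 4.69% and 2.61% of all genes called. The count was between 1 and 2 when a library was left out. It was 3 with the replicate block (11.0% of all genes called, against 8.49%), 3 without OE-CTD 4 and OE-WD 4 (10.8%), and 2 without these and CT-WD 2 (5.94%, adjusted p 0.0361 for Phka1 and 0.0379 for Ppp1r3c), the last 2 settings chosen after the data were seen. Between OE-CTD and CT-CTD the count of 0 became 1 with DESeq2 (5.27% of all genes called), 2 without the filter (2.72%), 1 with only the groups compared (4.04%) and 2 with the replicate block (5.26%), against 2.67%, and ran from 0 to 2 with a library left out. Between OE-WD and CT-WD it was 1 without the filter (2.01% of all genes, against 0.725%) and ran from 0 to 1 with a library left out. Replicate numbers did not pair libraries across genotypes (correlations between -0.23 and 0.046). Between the EC-Myc OE groups the correlations were 0.071, 0.138, 0.142 and 0.338, so all but the first were above 0.1. Whether the numbers pair these libraries cannot be told. Beyond the genotype comparisons the block changed no call of the 9 genes. Over all genes it gave 53 calls between OE-WD and OE-CTD, instead of 1. Over both diets the block gave Pygm -0.21 (adjusted p = 0.0337). Replicate 4 exists in EC-Myc OE alone, so this block takes OE-CTD 4 and OE-WD 4 largely out of the genotype difference and is no separate support for leaving them out.

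Values near 0 changed sign. Phka1 between the CT groups ran from -0.22 to 0.13 with a library left out and was 0.0055 without OE-CTD 4, OE-WD 4 and CT-WD 2. The interaction of Ppp1r3c ran from -0.40 to 0.49, was 0.0109, 0.0131 and 0.0109 with limma, and 0.39 without those 3 libraries. Over both genotypes, the diet values of Gbe1 ran from -0.0423 to 0.0201 (0.0247 without those 3), of Ugp2 from -0.0052 to 0.0895, of Phka1 from -0.0373 to 0.1365 and of Phkg1 from -0.0162 to 0.0832 (-0.0052 without those 3). Gbe1 between genotypes ran from -0.0561 to 0.0045, was 0.0304 with the replicate block and 0.0255 without OE-CTD 4 and OE-WD 4. Between the CT groups Gbe1 ran from -0.1167 to 0.0081 (0.0104 without those 3). Between the EC-Myc OE groups Gyg ran from -0.0218 to 0.018 (0.0182 without OE-CTD 4 and OE-WD 4, 0.02 without those 3), Gbe1 from -0.0217 to 0.0823, Ugp2 from -0.1235 to 0.0455, Pygm from -0.0211 to 0.151 and Ppp1r3a from -0.0442 to 0.0555 (-0.0034 with only the groups compared, -0.001 with the replicate block). Between OE-WD and CT-WD Gyg ran from -0.0819 to 0.0064 (0.0166 without those 3), Gbe1 from -0.0382 to 0.0683 and Ppp1r3a from -0.0687 to 0.068 (-0.0362 with the replicate block, -0.0408 without OE-CTD 4 and OE-WD 4, -0.0181 without those 3).

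Between OE-CTD and CT-CTD, with a library left out, Gys1 ran from -0.0286 to 0.1327 (-0.0026 with the replicate block, -0.0097 without OE-CTD 4 and OE-WD 4, -0.0109 without those 3), Ugp2 from -0.1141 to 0.0156 (0.0044 with the replicate block) and Phkg1 from -0.1327 to 0.0574 (6e-04 with the replicate block). The interaction ran from -0.0399 to 0.1203 for Gys1, from -0.009 to 0.1236 for Gyg and from -0.1566 to 0.0151 for Pygm (0.0187 without those 3). The causes were not tested. The count of all genes called between genotypes, 1312 with edgeR, was 1848 with DESeq2 and 728 with limma without a filter, and ran from 707 (CT-WD 2 left out) to 2487 (CT-WD 1 left out). Between OE-WD and CT-WD it was 112, and 576 with DESeq2, 4 with only the groups compared and 0 with the replicate block, and it ran from 4 (OE-WD 2 left out) to 1499 (CT-WD 1 left out). Between OE-CTD and CT-CTD it was 413, and 814 with DESeq2, 101 with limma on log2(FPKM + 0.1) and 776 with the replicate block, and it ran from 77 (CT-CTD 3 left out) to 615 (CT-WD 1 left out). Of 36 group levels, 15 moved by more than 1 SD when CPM per kilobase replaced FPKM.

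When CT-WD and OE-CTD exchanged names, as tried once the data had been seen, the count called between diets over both genotypes was 2 (8.49% of all genes), with -0.4103 for Phka1 (adjusted p = 0.0282) and -1.0517 for Ppp1r3c (adjusted p = 0.0138), Gys1 0.0645, Ugp2 -0.1458, Pygm -0.1276 and Phkg1 -0.1305. Between genotypes over both diets it was 0 (0.00647% of all genes), with Gys1 at -0.1051, Ugp2 0.0496, Pygm 0.098, Phka1 0.0613, Phkg1 0.0256 and Ppp1r3c 0.5571. The other comparisons had 0 called, against 2.67% of all genes for diet in CT, 0.725% for diet in EC-Myc OE, 0.00647% for genotype on WD and 0% for genotype on CTD and the interaction. For diet in CT with these names exchanged Gys1 was 0.0358, Ugp2 -0.0648, Pygm -0.0899, Phkg1 -0.0589 and Ppp1r3c -1.0416, and for diet in EC-Myc OE Gys1 was 0.0932, Pygm -0.1652, Phka1 -0.3275 and Ppp1r3c -1.0619. For genotype on WD Gys1 was -0.0764, Pygm 0.0603, Phka1 0.1441 and Ppp1r3c 0.5469, and on CTD Gys1 was -0.1338, Ugp2 0.1306, Pygm 0.1357, Phkg1 0.0972 and Ppp1r3c 0.5672.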

Other observations

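Gys2, the liver form of glycogen synthase, had 76 counts in CT-CTD 1 and between 2 and 14 in the other libraries. Pygl, the liver form of phosphorylase, was at 11.1 CPM in CT-CTD 1 and between 0.978 and 5.26 CPM in the others. CT-CTD 1 also had the highest summed FPKM of 6 adipocyte genes, at 230.1, where the others had between 59.2 and 188.5. Gys2 had a log2 fold change of -3.18 between CT-WD and CT-CTD (adjusted p = 0.545 by edgeR), which was -1.23 without CT-CTD 1. The summed FPKM of 4 liver genes was 0.202 in CT-CTD 1 and 7.39 in OE-CTD 1.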
